A study of Xenopus laevis with 64 samples.

Results

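Methimazole (MMI) in the tadpole tail was measured on 6 of the 64 arrays in the study: 3 of MMI-exposed tails and 3 of their controls, taken by the titles of the samples. Each array held amplified, P32-labelled RNA from the tail of 1 Xenopus laevis tadpole, whose exposure began at Nieuwkoop and Faber (NF) stage 54 and lasted 48 h. MMI was given at 100 mg/L, and the controls were the animals of the same experiment and time without an inhibitor. Tails of the same experiment and time with propylthiouracil (PTU, 20 mg/L) or perchlorate (PER, 4 mg/L), with 3 arrays each, shared these controls and serve below as a comparison. The labels name no strain or sex, and do not say which animals of a treatment shared a tank, so no p-value is known to cover the spread between tanks. With 1 array per animal, the spread between animals and that between arrays cannot be told apart.

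Thyroid hormone drives metamorphosis, in which the tail of the tadpole regresses while the limbs grow. Methimazole blocks thyroid peroxidase, the enzyme that couples iodine to thyroglobulin in the thyroid gland. PTU is a thionamide that blocks the same enzyme, and perchlorate blocks the uptake of iodide into the gland. In the tail the hormone acts through nuclear receptors, which switch on transcription factors such as thibz and proteases such as mmp9 and fap, and lower other transcripts.

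The array carried 406 pairs of neighbouring duplicate spots, and a pair was given the mean of its spots. A pair counted as above background on an array where that mean exceeded 2 noise SDs, with the noise taken from the spots that read below 0. The comparison of MMI with control covered 51 pairs that were above background on at least 3 of the 6 arrays. Of these, 27 carried a gene name (21 genes) and 24 did not. Each gene is given on 2 scales. "As deposited" means log2 of the deposited intensity, and "normalized" means log2 intensity after background modelling and quantile normalization over all 26 tail arrays.

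The overall scale of the MMI arrays differed from that of the controls before any gene was compared. The deposited values of each array were whole numbers times 1 constant (within 0.01 for 100% of the spots). That constant was 1.27, 1.44 and 1.25 on MMI replicates 1, 2 and 3, and 2.00, 1.85 and 1.69 on control replicates 1, 2 and 3. The groups did not overlap (exact two-sided permutation test, p = 0.1, the smallest that 3 against 3 arrays allow). This was not particular to MMI. The constants of the PTU arrays (1.19, 1.31 and 1.19) and of the PER arrays (1, 1.26 and 1.45) also lay below every control. The noise of the deposited values was 426, 702 and 746 intensity units on MMI replicates 1, 2 and 3 and 270, 380 and 211 on the controls, again without overlap (exact permutation p = 0.1). It was 409 to 481 on the PTU arrays and 301 to 503 on the PER arrays. MMI replicate 3 stood apart, with a mean over all spots of 1701 against 324 to 571 on the other 5 arrays, so it is named wherever it carries a value. Medians of all spots did not separate the groups (54.0, 23.0 and 260 with MMI, 72.1, 85.2 and 32.2 in controls, difference 49.1, exact permutation p = 0.9). The 5 pairs of rpl8.S, a protein of the large ribosomal subunit often used as a reference transcript, averaged 1115, 1209 and 1291 with MMI and 1300, 1334 and 1181 in controls as deposited. Each of these pairs was above background on all 3 controls but, of the MMI arrays, on replicate 1 alone. Over the 12 arrays with and without inhibitors the coefficient of variation of single rpl8.S pairs was 7.36 to 13.9%, against a median of 43.9% over single tested pairs. Other pairs were as even, such as nme2.L at 7.86% and rpl35a.S at 11.0%. With the constants divided out, 1 tested pair became more even. No label states the rule behind the constants.

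**Figure D1:**
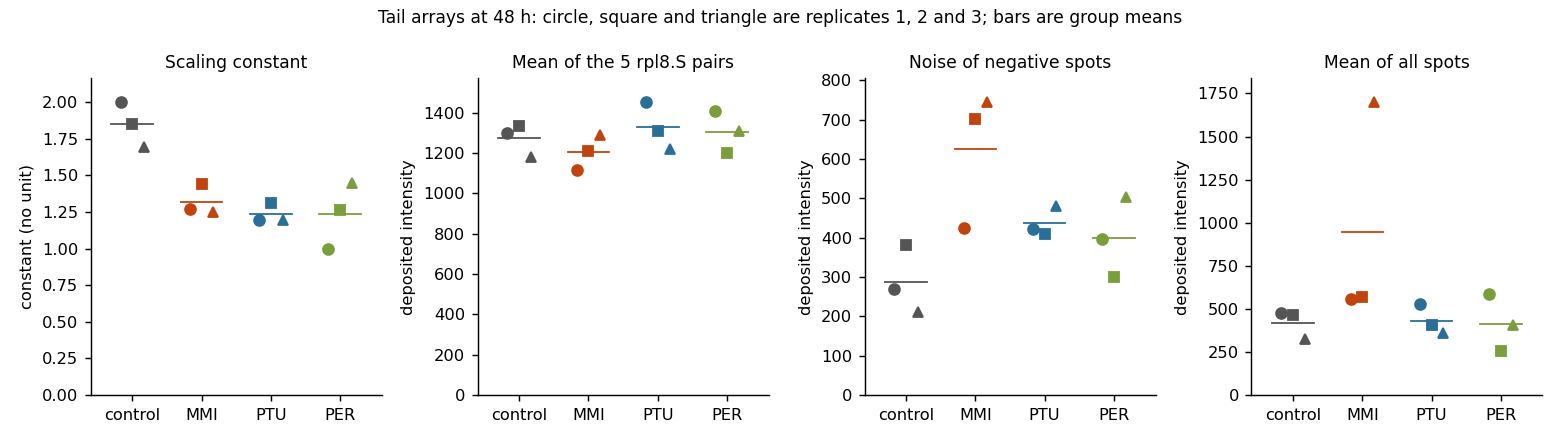
Array properties of the 12 tail arrays at 48 h, by group, with the constant of each array (no unit) and 3 quantities in deposited intensity units on linear axes from 0; circles, squares and triangles are replicates 1, 2 and 3 and bars are group means. The MMI arrays have lower constants (1.25 to 1.44) than the controls (1.69 to 2.00), and so do the PTU and PER arrays (1 to 1.45). The rpl8.S mean is nearly level, and MMI replicate 3 reads 1701 as the mean of all spots.

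None of the 51 pairs passed an adjusted p of 0.05 in limma, normalized or as deposited (0% called on either scale), so the values below describe differences that did not pass the test. At an unadjusted p under 0.05 there were 16 pairs on the normalized scale (31.4%), 2 higher and 14 lower with MMI. As deposited there were 9 (17.6%), all higher. With background modelling but no quantile normalization, a planned setting, there were 19. All 51 pairs then read higher, with 0 passing (smallest adjusted p = 0.075, limma). The median pair read -0.31 on the normalized log2 scale and 0.88 as deposited. Normalized changes are relative to the distribution of all spots, which quantile normalization makes alike on the 26 tail arrays. The median moved with the choice of scale and filter: it was -0.10 with arrays centred on their median, 0.68 with arrays centred on rpl8.S and -0.0087 with no filter. Over the 31 pairs above background on all 6 arrays it was -0.14, with 6 pairs at an unadjusted p under 0.05. Of the 14 lower pairs, 8 were above background on at most 1 MMI array and so entered the comparison through the controls. The median half-width of the 95% interval of a normalized log2 difference was 0.79. Without MMI replicate 3 the median read -0.24 normalized and 0.41 as deposited, with 4 and 1 pairs at an unadjusted p under 0.05. With the constants of the arrays divided out and no other scaling, 39 pairs passed, all higher with MMI. With MMI replicate 1 left out, 2 pairs passed on the normalized scale, rpl8.S (pair 15) at -0.79 and the unnamed pair 250 at -0.74, neither of which was above background on MMI replicates 2 and 3.

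**Figure D2:**
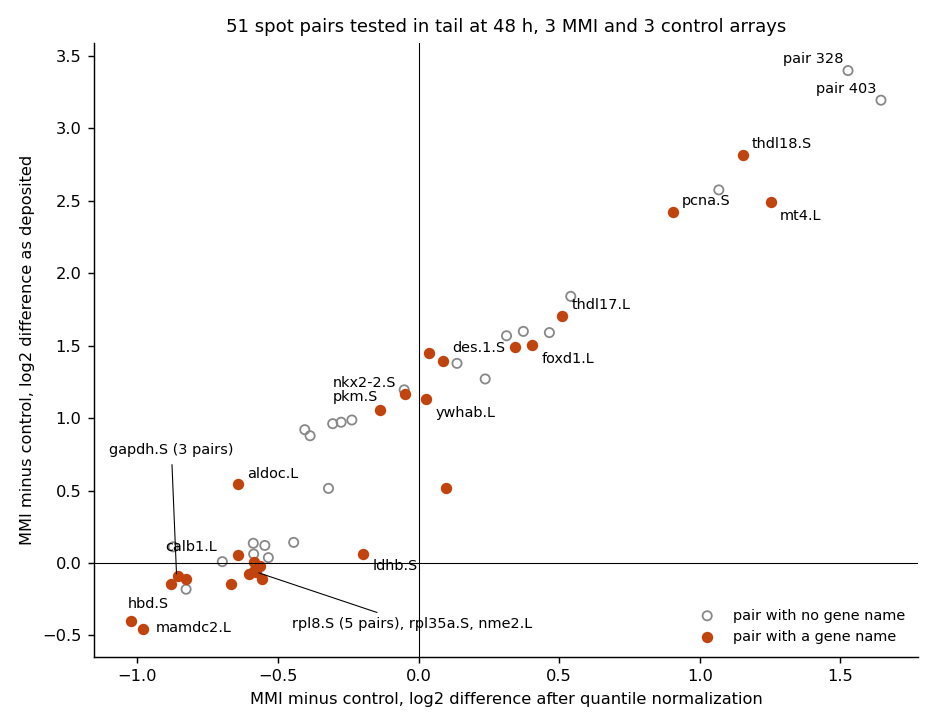
Log2 difference of MMI minus control for the 51 tested pairs, normalized on the horizontal axis and as deposited on the vertical axis, with named pairs filled and unnamed pairs open. Most points lie above 0 as deposited, and those of rpl8.S and gapdh.S lie near 0 as deposited and between -0.88 and -0.56 after normalization.

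Metallothionein mt4.L, a small cysteine-rich protein that binds zinc and copper and is induced by metals in many vertebrates, was higher with MMI on both scales, with no overlap between the groups. Its deposited intensity was 9413, 14923 and 14972 on MMI replicates 1, 2 and 3 and 2369, 3766 and 1328 on control replicates 1, 2 and 3. All MMI arrays lay above all controls, and MMI replicate 3 did not stand out from replicate 2. The normalized log2 values of 13.56, 13.79 and 12.74 with MMI also lay above those of 12.12, 12.68 and 11.53 in controls, although MMI replicate 3 and control replicate 2 then came within 0.1 of each other. The group means differed by 1.25 normalized (SE 0.73, adjusted p = 0.222, limma) and by 2.49 as deposited (SE 1.17, adjusted p = 0.229). The SE pools the spread over all 8 tail groups. Divided by the mean of the rpl8.S pairs of the same array, which removes any constant of an array, mt4.L read 8.44, 12.34 and 11.60 with MMI and 1.82, 2.82 and 1.12 in controls. On MMI replicates 2 and 3 the divisor was not above background, so those ratios have no firm value. No single array carried this difference: with each of the 6 left out in turn it ran from 0.97 to 1.55 normalized and from 2.10 to 2.85 as deposited.

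Only 3 of the 50 pairs measured on all 6 arrays (6.00%) had all MMI arrays above all controls on the normalized scale, and the same 3 did so on both scales (6.00%). They were mt4.L and the unnamed pairs 328 and 403, which were singled out after their values were seen. Pair 328 read 2739, 1480 and 13940.4 as deposited on MMI replicates 1, 2 and 3 against 272, 1004 and 176 in controls. It was above background on 1 of 3 controls and entered the comparison through the MMI arrays. Pair 403 read 3792, 3410 and 41509 (replicate 3) against 572, 1137 and 1073. In both, MMI replicate 3 was several times the other MMI arrays, unlike in mt4.L. The normalized difference of pair 403 was 1.64 (SE 0.86, adjusted p = 0.182, limma).

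Proliferating cell nuclear antigen (pcna.S), the sliding clamp of DNA polymerase at the replication fork, was higher with MMI as deposited. Its intensity was 4201, 5575 and 13925 on MMI replicates 1, 2 and 3 and 2868, 1398 and 528 on control replicates 1, 2 and 3. All MMI arrays lay above all controls, with control replicate 3 the lowest and MMI replicate 3 the highest. Normalized, the MMI arrays were close together (12.40, 12.51 and 12.63) and the controls spread (12.42, 11.48 and 10.93), so that the groups overlapped. The difference was 0.91 normalized (SE 0.43, unadjusted p = 0.0463, adjusted p = 0.148, limma) and 2.42 as deposited (SE 0.79, adjusted p = 0.187). Without control replicate 3 the normalized difference was 0.57, and without control replicate 1 it was 1.31. It was the only tested gene of the 11 on the array that belong to the list of cell cycle and replication genes. The others were above background on fewer than 3 of the 6 arrays and were not tested. Among them were the cyclins ccnd1.L, ccnd2.L and ccne1.L, the kinases cdk1.S and cdk2.S and the replicative helicase subunits mcm2.L to mcm5.L. Of the 11 genes, 5 were above background on none of the 6 arrays.

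Of the 5 thyroid hormone response genes on the array, 2 were tested, thdl17.L and thdl18.S, and neither passed. Both carry the gene symbol of transcripts described as lowered by thyroid hormone in the tadpole tail. thdl18.S read 3649, 3215 and 29506 on MMI replicates 1, 2 and 3 and 1890.5, 948 and 553 on control replicates 1, 2 and 3. The groups did not overlap as deposited, and MMI replicate 3 was far above the other arrays. Its difference was 1.15 normalized (SE 0.67, adjusted p = 0.222, limma) and 2.82 as deposited (SE 1.36, adjusted p = 0.229). Without MMI replicate 3 these became 0.56 and 1.78.

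thdl17.L read 5147, 5946 and 41174 on MMI replicates 1, 2 and 3 and 4285 (replicate 1), 4760.2 (replicate 2) and 1793 (replicate 3) in controls as deposited. Its MMI replicates 1 and 2 lay just above control replicates 1 and 2 on that scale and below them once normalized (12.76 and 12.57 against 12.89 and 13.07). The difference was 0.51 normalized (SE 0.51, adjusted p = 0.518) and 1.70 as deposited (SE 0.82, adjusted p = 0.229). Without MMI replicate 3 it was 0.05 normalized and 0.74 as deposited. The other 3 genes of the list, the hormone-induced transcription factor thibz.L, the matrix metalloproteinase mmp9.1.S and the membrane protease fap.L, were above background on 0 of the 6 arrays. Their deposited intensities lay between -456 and 484 (thibz.L), -753 and 66.8 (mmp9.1.S) and -1216 and -930.2 (fap.L) with MMI, so no level could be compared.

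**Figure D3:**
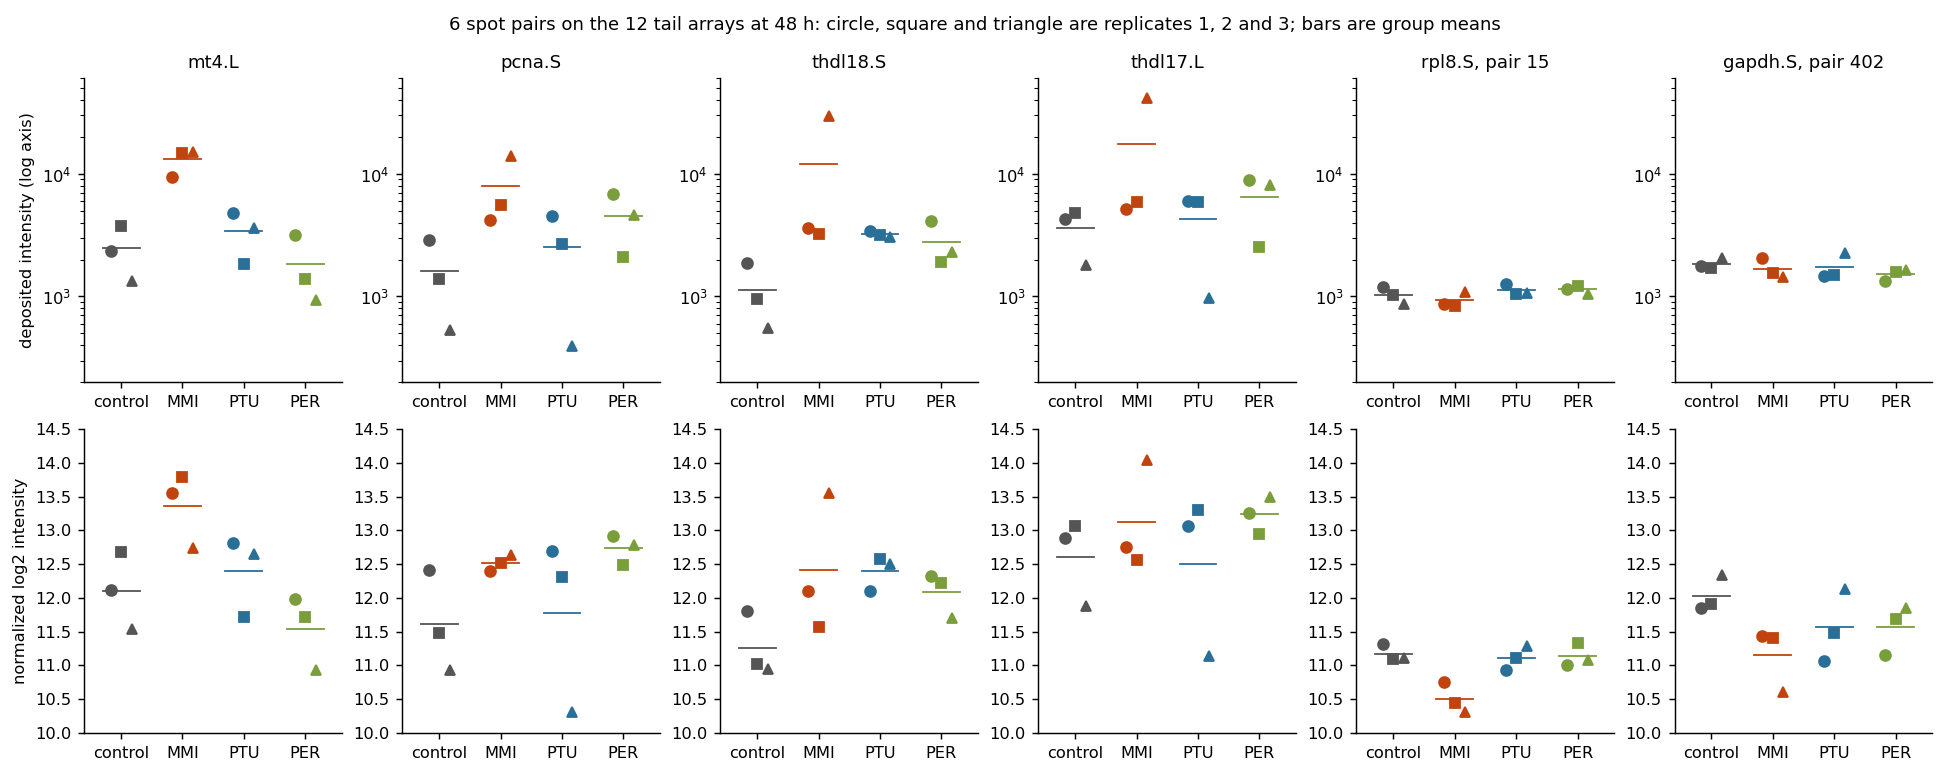
Values of 6 pairs on the 12 tail arrays, with deposited intensity on a log axis in the upper row and normalized log2 intensity in the lower row; circles, squares and triangles are replicates 1, 2 and 3 and bars are group means. The 3 MMI values of mt4.L lie above all 9 other arrays in the upper row, while in the lower row PTU replicate 1 lies above MMI replicate 3. MMI replicate 3 is far above the rest for thdl18.S and thdl17.L in the upper row. The pairs of rpl8.S and gapdh.S are level in the upper row and have their lowest group means with MMI in the lower row.

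Of the 27 named pairs tested, 6 were ribosomal and 6 glycolytic, and all of these read lower with MMI after normalization. These are counts of spots, since the ribosomal pairs came from 2 genes and the glycolytic pairs from 4. Pairs outside these lists also read lower, such as nme2.L (-0.59), hbd.S (-1.02) and the unnamed pair 398 (-0.70). In all, 19 of the 51 tested pairs read higher. All 6 tested pairs of the ribosome list, 5 of them rpl8.S, read lower normalized (median -0.58), beside 32 of all 51 tested pairs (median -0.31), and 0 passed. The rpl8.S pairs entered the comparison through the controls and were above background on 1 of 3 MMI arrays. Their fitted differences ran from -0.67 (SE 0.20, adjusted p = 0.083, limma) to -0.56. As deposited the same pairs ran from -0.15 to -0.02. Pair 15 of rpl8.S read 861, 832 and 1092 as deposited on MMI replicates 1, 2 and 3 and 1197, 1019 and 869 on control replicates 1, 2 and 3, so that the groups overlapped. Its normalized values of 10.76, 10.44 and 10.32 with MMI lay below 11.32, 11.09 and 11.11 in controls. rpl35a.S, also a protein of the large ribosomal subunit, read -0.60 normalized (SE 0.30, adjusted p = 0.173) and -0.08 as deposited, with 1517, 1432 and 1354 on the MMI arrays and 1721, 1323 and 1520.5 on the controls.

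Glyceraldehyde-3-phosphate dehydrogenase (gapdh.S), a glycolytic enzyme spotted as 3 pairs, was also lower with MMI after normalization and level as deposited. Pair 402 read 2066, 1561 and 1443 on MMI replicates 1, 2 and 3 and 1774, 1711 and 2077 on control replicates 1, 2 and 3 as deposited, with overlap. Its normalized values were 11.44, 11.40 and 10.61 with MMI against 11.85, 11.91 and 12.34 in controls, without overlap, and it was above background on 2 of 3 MMI arrays. The difference was -0.88 normalized (SE 0.30, adjusted p = 0.094, limma) and -0.15 as deposited, and the other 2 pairs read -0.83 and -0.86 normalized and -0.11 and -0.09 as deposited. The 3 gapdh.S pairs differed from each other by at most 0.06 on either scale.

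The other glycolytic genes read between 0.06 and 1.05 higher as deposited on the log2 scale, with overlap between the groups. Aldolase aldoc.L, which splits fructose-1,6-bisphosphate, read 4063, 596 and 8791 on MMI replicates 1, 2 and 3 and 815, 3499.5 and 2393 on control replicates 1, 2 and 3 as deposited. The groups overlapped, MMI replicate 2 was not above background, and the difference was -0.64 normalized (SE 0.66) and 0.55 as deposited. Pyruvate kinase pkm.S, the last step of glycolysis, read -0.14 and 1.05. The deposited intensity of pkm.S was 4973, 3302 and 17588 on MMI replicates 1, 2 and 3 and 3732, 4134 and 2092 in controls, so that replicate 3 carried the mean. Lactate dehydrogenase ldhb.S, 1 of the brightest pairs, read -0.20 normalized (SE 0.23) and 0.06 as deposited, with 20649.5, 21321 and 41081 against 34060 (replicate 1), 28685 and 16181. All 6 tested pairs of the energy list, 3 of them gapdh.S, read lower normalized (median -0.73), beside 32 of all 51 tested pairs. As deposited 3 of the 6 read higher, beside 39 of the 51, and 0 passed on either scale.

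Haemoglobin hbd.S, the single blood gene on the array, was above background on all 3 controls and on 1 of 3 MMI arrays, so it entered the comparison through the controls. Its deposited intensity was 1622, 968 and 1423 on MMI replicates 1, 2 and 3 and 1470.2, 1911 and 1823 on control replicates 1, 2 and 3. MMI replicates 2 and 3 were lower than every control and replicate 1 lay among them. On those 2 arrays the pair was not above background. The fitted difference was -1.02 normalized (SE 0.40, adjusted p = 0.123, limma) and -0.40 as deposited (SE 0.26, adjusted p = 0.373). In whole tail RNA, fewer cells of a type and less RNA per cell cannot be told apart.

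Muscle transcripts differed by less than their SE between the groups once normalized. Desmin (des.1.S), which links the myofibrils of a muscle fibre, read 4797, 6596 and 17522 on MMI replicates 1, 2 and 3 and 4002, 2722 and 2805 in controls as deposited, and tropomyosin tpm4.S, an actin-binding protein, read 5609, 10191 and 13550.5 against 6025, 1740 (replicate 2) and 3622. All MMI arrays were above all controls in desmin but not in tpm4.S. The normalized differences were 0.09 (SE 0.52) and 0.04 (SE 0.65), and those as deposited 1.39 and 1.45, with 0 of the 2 genes passing. Both muscle genes were above background on all 6 arrays of the tail, and the myoblast factor myf5.L was dim on all 6. Of the other marker lists, the 5 matrix and mesenchyme genes on the array (col2a1.L, fn1.S, mmp2.S, mmp9.1.S and fap.L) gave 0 tested pairs, and no pair stood for epidermis, immune cells or liver.

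Of the 3 genes of the nervous system list, 2 were tested and 0 passed. The calcium-binding protein calb1.L, a marker of certain neurons, read -0.64 normalized (SE 0.40, adjusted p = 0.229, limma) and 0.06 as deposited, with 16205, 10980.5 and 18246 on the MMI arrays and 9261, 22386 and 13916 on the controls. The groups overlapped as deposited. The calcineurin subunit ppp3ca.S, a calcium-dependent phosphatase, was measured on only 2 MMI and 2 control arrays and read 0.10 normalized and 0.52 as deposited. Of the 7 genes of the list of chromatin and transcription factors, 1 was tested and did not pass. It was the homeobox gene nkx2-2.S, which patterns the ventral neural tube and read -0.05 normalized (SE 0.34) and 1.17 as deposited (SE 0.44, adjusted p = 0.187), with 6108, 10550.3 and 11009 on the MMI arrays and 3421, 6313 and 2900 (replicate 3) on the controls. MMI replicate 1 lay below control replicate 2 there. The forkhead factor foxd1.L, which stood on no list, was low but separated as deposited, at 1914, 1562 and 1657 with MMI and 448, 900.3 and 537 in controls, and its difference was 0.40 normalized (SE 0.48, adjusted p = 0.581) and 1.50 as deposited.

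The remaining named genes followed no single direction. The proteasome subunit psma2.L read 0.34 normalized and 1.49 as deposited, with all 3 MMI arrays (4483, 5747 and 10171) above the controls (1509, 2876 and 2708) as deposited. Nucleoside diphosphate kinase nme2.L, which balances the pools of nucleotides, was level as deposited at 1832 (replicate 1), 1940.4 and 1753 with MMI against 2100 (replicate 1), 1710 (replicate 2) and 1709 in controls. Its difference was 0.01 as deposited and -0.59 normalized (SE 0.35, adjusted p = 0.222). mamdc2.L spread widely with MMI (377, 1099 and 8738 against 2763, 1905 and 1768). Its mean intensity was higher with MMI (3405 against 2145), while its log2 values were lower on both scales. The log2 difference was -0.98 normalized (SE 0.61) and -0.45 as deposited (SE 1.16). It was above background on 1 of 3 MMI arrays. The 14-3-3 protein ywhab.L, an adaptor that binds phosphorylated proteins, read 1582, -245 and 6783 with MMI and 849, 373 and 161 in controls as deposited. It was above background on 2 MMI arrays and 1 control, and its difference was 0.03 normalized (SE 0.53) and 1.13 as deposited.

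Among pairs without a gene name, the 3 with the smallest p on the normalized scale were pairs 250, 404 and 120. Pair 250 read 767, 771 and 674 as deposited with MMI and 755, 771 and 602 in controls, so that the groups overlapped (means 738 and 709). With the higher noise of the MMI arrays it was not well above background on any of them, and it entered the comparison through the controls alone. Its fitted normalized difference (-0.59, adjusted p = 0.083, limma) therefore describes no measured level with MMI. Pair 404 read -0.83 normalized (SE 0.28, adjusted p = 0.094) and -0.18 as deposited, and pair 120, above background on 1 of 3 MMI arrays, read -0.53 and 0.04.

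Counting non-overlapping groups gave opposite pictures on the 2 scales. Of the 50 complete pairs, 18 (36.0%) had all MMI arrays below all controls when normalized, and 0 (0%) did as deposited. Of these 18, 8 were above background on at most 1 MMI array. All MMI arrays were above all controls as deposited in 17 pairs (34.0%). A change of at least 2-fold between group means was reached by 5 pairs upwards (9.80%) and 1 downwards (1.96%) when normalized, and by 21 (41.2%) and 0 (0%) as deposited. The 5 upward pairs on the normalized scale were mt4.L, thdl18.S and the unnamed pairs 328, 403 and 391. Pair 328 was above background on 1 of 3 controls. In all of them but mt4.L, MMI replicate 3 was several times the other MMI arrays as deposited. The downward pair was hbd.S, above background on 1 of 3 MMI arrays.

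In the median, PTU and PER arrays of the same experiment read close to the controls over the pairs tested for MMI. Single pairs lay further from the controls, among them thdl18.S with PTU and pcna.S with PER, given below. These contrasts use the same 3 controls as MMI, so agreement between them is not independent, and the concentrations differ. Over 50 of those pairs the median difference was -0.08 normalized and 0.07 as deposited with PTU, and -0.08 and 0.04 with PER, each with 0 pairs passing. mt4.L read 4803, 1845 and 3615 on PTU replicates 1, 2 and 3 and 3176, 1399 and 938 (replicate 3) on PER replicates 1, 2 and 3. All 6 lay below the lowest MMI array as deposited, but normalized PTU replicate 1 (12.81) lay above MMI replicate 3 (12.74). The normalized differences from control were 0.28 (SE 0.73) with PTU and -0.57 (SE 0.73) with PER. thdl18.S read 1.14 (SE 0.67) normalized with PTU and 0.83 (SE 0.67) with PER, beside 1.15 with MMI. As deposited it read 1.68, 1.39 and 2.82 in that order. pcna.S read 0.17 normalized with PTU and 1.12 with PER, beside 0.91 with MMI, and 0.39, 1.66 and 2.42 as deposited. hbd.S read -0.03 normalized with PTU and -0.33 with PER, beside -1.02 with MMI, and 0.20, -0.25 and -0.40 as deposited. The gapdh.S pairs read -0.42 to -0.60 normalized with PTU and -0.37 to -0.66 with PER, beside -0.83 to -0.88 with MMI. As deposited they read -0.11 to -0.26 with PTU, -0.24 to -0.47 with PER and -0.09 to -0.15 with MMI. PER gave the lowest gapdh.S values on that scale.

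**Figure D4:**
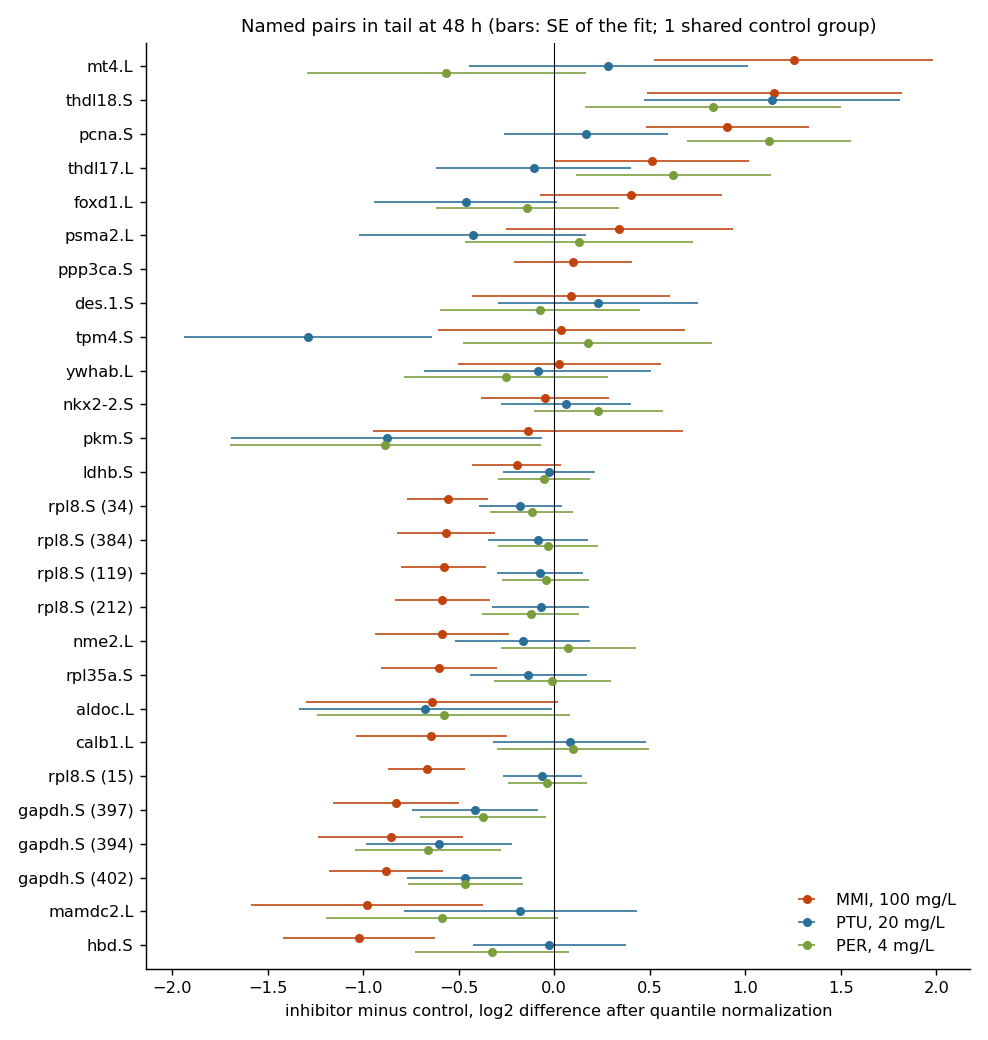
Normalized log2 difference from the shared control group for the 27 named pairs, with the SE of the fit as bars, for MMI, PTU and PER at their different concentrations; numbers in brackets tell pairs of 1 gene apart, and ppp3ca.S has values for MMI only. mt4.L is at 1.25 with MMI, 0.28 with PTU and -0.57 with PER, and the rpl8.S pairs lie between -0.67 and -0.56 with MMI and between -0.18 and -0.03 with the others.

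Set directly against the PTU and PER arrays together, a contrast in which the controls cancel, MMI gave 0 calls among 57 tested pairs in limma on either scale (0%). At an unadjusted p under 0.05 there were 13 normalized, 2 higher and 11 lower with MMI, and 9 as deposited, all higher. mt4.L was 1 of the 2 higher pairs, at 1.39 (SE 0.63, unadjusted p = 0.0385, adjusted p = 0.216), and pair 403 the other, at 2.00 (SE 0.74). Pair 403 read 41509 as deposited on MMI replicate 3, against 3792 and 3410 on MMI replicates 1 and 2. It was above background on 2 PTU arrays and 1 PER array. The 5 rpl8.S pairs read -0.62 to -0.41 and hbd.S -0.85 (SE 0.35, adjusted p = 0.216). These pairs were above background on 1 of 3 MMI arrays and on all PTU and PER arrays. They entered this contrast through the PTU and PER arrays, so the values describe no firm level with MMI. pcna.S and thdl18.S read 0.26 and 0.17 there. Of the cell cycle genes not tested against control, ccnd1.L, ccnd2.L and cdk1.S were tested in this contrast and read -0.40, 0.33 and 0.03 normalized.

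In the hindlimb, with the same concentration of MMI and normalized separately, mt4.L was at 36006 to 53969 as deposited at 24 h. Controls read 4465 to 25635 (normalized difference 1.06, SE 0.81). At 96 h mt4.L was above background on none of the 6 arrays, controls included, at -1662 to 1742 as deposited. The gapdh.S pairs 394 and 402 were likewise above background on all arrays at 24 h and on none at 96 h. The difference between the 2 times was therefore not particular to mt4.L. pcna.S read -0.09 at 24 h and 0.19 at 96 h there.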

How the data were processed

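Tail RNA of single tadpoles was hybridised to a small cDNA array, 1 array per animal, and samples were grouped by their titles. The authors deposited linear spot intensities in the series matrix, with background already subtracted, since 38.8 to 50.6% of the measured spots of the 12 tail arrays of the inhibitor experiment read below 0. The scanner and the rule for blank spots (11 to 41 of 812 on those arrays) are not stated in the labels. Symbols of 233 pairs were updated through gene identifiers to the Xenopus_laevis_v10.1 annotation, used for names only, and 169 pairs had none. Symbols ending in L or S name the copy on the long or the short subgenome, and a cDNA spot may not tell the copies apart.

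Spots were passed through normexp (offset 50), log2 and quantile normalization over the 26 tail arrays in limma 3.58.1 (R 4.3.3), and duplicates were averaged. lmFit and eBayes were fitted with 1 coefficient per tail group, without a replicate block, and p-values were adjusted by Benjamini-Hochberg over all tested pairs, at 0.05. For the values as deposited, log2 was taken of the pair mean, with means below 50 set to 50 (1 value among the tested pairs on the 6 arrays), without scaling, a setting added after the data were seen. Noise was 1.4826 times the median size of the negative values. The number of arrays limits the precision. The procedure was tested on simulated data. The simulated arrays had no difference in overall scale, so that test does not cover the scale difference between the MMI and control arrays. Members and lists were chosen with earlier results of these data known. Values in every array are given for the 12 genes with the smallest p, up to 6 more with the largest deposited change and the hormone response genes, and 3 unnamed pairs are given. Alternatives covered scaling, background, filters, duplicate spots, arrays fitted, weights, the block and each array left out. Figures were drawn with matplotlib.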

Additional observations from a re-analysis of the deposited data

Results flagged for a closer look

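1 of the 3 gapdh.S pairs (pair 394) read in opposite directions with MMI in the 2 tissues after normalization. All 3 MMI arrays lay below the control mean in the tail at 48 h, by -0.86 on average, and all 3 lay above it in the hindlimb at 24 h, by 0.27 (SE 0.18), which passed no test. The effects differed by -1.13 on the log2 scale. The difference was not tested, the tissues were normalized separately, and as deposited the tail value was -0.09. The other 2 gapdh.S pairs kept the sign of the tail in the hindlimb at 24 h, at -0.09 (pair 402) and -0.34 (pair 397). At 96 h pair 394 itself read -0.0069 and was above background on none of the 6 hindlimb arrays. The spots of this gene disagreed in level there. Pairs 394 and 402 read 571 to 821 as deposited at 96 h, and pair 397 read 34780 to 65291, above background on all 6 arrays. At 24 h pair 394 had read 17795 to 41123.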

How the results depend on the processing

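The count of passing pairs, 0 of 51, was also 0 under 16 of the 17 other settings tried with all 6 arrays, and 39 (all higher) with the constants of the arrays divided out. With single arrays left out it ran from 0 to 2 normalized, 2 only without MMI replicate 1, and was 0 throughout as deposited. MMI against PTU and PER gave 0 under every setting. With the replicate number as a block the count was again 0. The labels do not say whether the numbers pair animals. Same-numbered MMI and control arrays deviated with r of -0.53, -0.02 and -0.25, and different-numbered ones with r from -0.14 to 0.36. With 3 arrays a group these values cannot decide whether animals were paired. Pairs at 2-fold or more numbered 6 normalized, 22 as deposited after normexp and 21 in plain log2. Median brightness differed by 49.1, between -24.6 (without MMI replicate 3) and 93.6 with single arrays left out, and the number of pairs above background by -1.67. The log2 differences of mt4.L, pcna.S, thdl18.S, thdl17.L and foxd1.L kept their direction under every setting run. Those of other genes turned from the normalized value, and the cause was not tested beyond the scaling each setting applies. As deposited after normexp, rpl8.S pair 15 became 0.30, gapdh.S 0.17, hbd.S 0.025, rpl35a.S 0.25, nme2.L 0.27, calb1.L 0.091, mamdc2.L 0.14, aldoc.L 0.76, nkx2-2.S 1.20, ldhb.S 0.089, pkm.S 1.02, and pairs 250, 404 and 120 became 0.51, 0.10 and 0.42. In plain log2, nme2.L became 0.0074, calb1.L 0.057, aldoc.L 0.55, nkx2-2.S 1.17, ldhb.S 0.065, pkm.S 1.05, and pairs 250 and 120 became 0.062 and 0.037. With the constants divided out, rpl8.S pair 15 became 0.76, gapdh.S 0.64, hbd.S 0.49, rpl35a.S 0.71, nme2.L 0.73, calb1.L 0.57, mamdc2.L 0.61, aldoc.L 1.23, nkx2-2.S 1.67, ldhb.S 0.57, pkm.S 1.50, and pairs 250, 404 and 120 became 0.96, 0.57 and 0.87. Centred on rpl8.S, aldoc.L became 0.47, nkx2-2.S 0.91, pkm.S 0.73, and pairs 250 and 120 became 0.22 and 0.13. Centred on the array median, nkx2-2.S became 0.21, pkm.S 0.033 and ppp3ca.S -0.31, and on the bright pairs nkx2-2.S 0.093 and ppp3ca.S -0.31. With the first spot of each pair, psma2.L became -0.17, tpm4.S -0.16, des.1.S -0.076, nkx2-2.S 0.15 and ppp3ca.S -0.055. With the second, ywhab.L became -0.30, ldhb.S 0.0041 and pkm.S 0.018. With array weights nkx2-2.S became 0.031 and ywhab.L -0.031, and with the replicate block ppp3ca.S became -0.074. With single arrays left out the normalized values ran from -0.20 to 0.73 (psma2.L), -0.45 to 0.31 (tpm4.S), -0.12 to 0.21 (des.1.S), -0.27 to 0.29 (nkx2-2.S), -0.16 to 0.66 (ywhab.L), -0.33 to 0.051 (ldhb.S), -0.0023 to 0.20 (ppp3ca.S) and -0.36 to 0.18 (pkm.S). Signal over background limits the comparison to 51 of 406 pairs, and the noise of the MMI arrays left rpl8.S above background on 1 of 3 of them.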
